A study of Mus musculus with 4 samples.

Results

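The mRNAs of 10 enzymes that break down branched-chain amino acids (BCAAs) on either side of the branched-chain ketoacid dehydrogenase (BCKDH) step were followed in RNA from adult mouse heart. The enzymes were taken from a list of names, Bcat2, Ivd, Mccc1, Mccc2, Hibch, Hibadh, Acad8, Pcca, Pccb and Aldh6a1, and all 10 were found among the 15746 genes of the table. They were set against Bckdha, Bckdhb and Dbt, the genes of the BCKDH complex itself. All 4 libraries came from hearts of wild-type (WT) mice, 2 from isolated mitochondria and 2 from a pellet of cell debris, called the rest fraction. The labels give no age, and the study's text calls the hearts adult. The rest fraction was the pellet of a low-speed spin of the homogenate and so held cell debris, unbroken cells and nuclei included. By the study's methods, the supernatant left after mitochondria were spun down was removed. The soluble cytosol in it was therefore part of neither fraction. The mitochondrial fraction was treated with digitonin, which opens cholesterol-rich membranes, and with RNase A, and its RNA was fragmented for an adjusted time. These steps are described for the mitochondrial samples only and cannot be told apart from the fraction. Nothing in the labels says whether the 2 libraries of a fraction came from separate hearts, so that p-values measure the spread between these libraries.

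Valine, leucine and isoleucine are degraded in the mitochondrial matrix. The mitochondrial aminotransferase BCAT2 first turns each of them into a ketoacid, and BCKDH then decarboxylates the ketoacid irreversibly. The path splits after that step: isovaleryl-CoA from leucine passes to IVD and to methylcrotonyl-CoA carboxylase, valine passes through ACAD8, HIBCH, HIBADH and ALDH6A1, and the propionyl-CoA from valine and isoleucine is carboxylated by PCCA and PCCB. The heart oxidizes BCAAs readily. All of these enzymes are encoded in the nucleus, so that their mRNAs are made outside mitochondria and their proteins are imported, commonly by way of an N-terminal targeting sequence. An mRNA of this kind in a mitochondrial preparation is therefore outside or at the surface of the organelle by the textbook account.

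The start of the coding sequence, which specifies the N-terminus of the protein, is shown for Bcat2 and for the paired carboxylase subunits. Bcat2 was the enzyme with the largest difference between fractions in the deposited scaling (not with libraries scaled by their totals). The BCKDH subunits shown are Dbt, higher in both mitochondrial libraries with the deposited scaling, and Bckdha, which overlapped between fractions. Each line holds the first 60 coding bases, 5′ to 3′, from the principal transcript in GENCODE M21 (GRCm38), with the start codon in capitals.
Bcat2: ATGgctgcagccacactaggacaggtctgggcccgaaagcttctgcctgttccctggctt
Mccc1: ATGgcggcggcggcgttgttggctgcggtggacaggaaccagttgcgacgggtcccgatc
Mccc2: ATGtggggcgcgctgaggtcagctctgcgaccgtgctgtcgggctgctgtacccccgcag
Pcca: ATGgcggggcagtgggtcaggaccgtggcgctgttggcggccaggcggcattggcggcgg
Pccb: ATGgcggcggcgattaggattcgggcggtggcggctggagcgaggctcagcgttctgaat
Bckdha: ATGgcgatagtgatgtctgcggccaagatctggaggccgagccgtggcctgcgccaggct
Dbt: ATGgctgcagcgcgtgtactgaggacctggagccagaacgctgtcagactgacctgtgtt
The start codons lie in exon 1 of the transcripts, at chr7:45570376-45570378 (plus strand) for Bcat2, chr3:36000555-36000557 (minus) for Mccc1 and chr13:100015512-100015514 (minus) for Mccc2. Those of Pcca and Pccb lie at chr14:122534367-122534369 (plus) and chr9:101034855-101034857 (minus), and those of Bckdha and Dbt at chr7:25658738-25658740 (minus) and chr3:116513141-116513143 (plus). G and C made up between 58.3% (Dbt) and 75.0% (Pcca) of these 60 bases.

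The values, called normalized counts, are read counts that the authors divided by each library's size factor and then rounded. The scaling gives a read a different worth in each library: 1 read stood for 3.87 and 2.55 normalized counts in the mitochondrial libraries (replicate 1 first, here and throughout), and for 0.264 and 0.365 in the rest libraries. Behind the libraries, in that order, were about 47400000, 32100000, 26300000 and 23500000 reads on genes. Genes of the mitochondrial chromosome took 97.6% and 93.5% of the mitochondrial libraries, which left few reads for nuclear mRNAs there, against 63.2% and 67.5% of the rest libraries. The worth of 3 reads was 11.6 and 7.65 normalized counts with mitochondria and 0.793 and 1.10 in the rest, and each of the 13 genes lay above this in each library. Heart muscle markers were strong in each library, and their summed normalized counts over 9 genes were lower with mitochondria (416485 and 316764 against 570754 and 506336). By gene, 6 of the 9 were higher in both mitochondrial libraries and 2 lower, with a median log2 fold change of 0.88 and 1 gene, Myl3, called higher by limma (adjusted p = 0.0469). In these lists 0 of the 35 marker genes were at 0 in any library. The 7 endothelial markers were lower in both mitochondrial libraries (sums of 1666 and 1481 against 2908 and 2581), as were the 4 nuclear RNAs (13652 and 8714 against 43171 and 45687), while the 7 fibroblast markers had the higher sums there (8386 and 3558 against 2248 and 3200), with 5 of them higher in both mitochondrial libraries and 1 lower. For the 8 blood and immune markers the sums were 383 and 535 against 905 and 610, with 3 higher in both mitochondrial libraries and 4 lower. Of all 12150 tested genes, 27.7% were higher in both mitochondrial libraries and 33.4% lower, and limma called 2.16% higher. The part of the marker shifts in the results for the enzymes was not tested.

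The question of the comparison was which transcripts were more abundant with mitochondria than in the rest fraction, the pellet of cell debris. With the deposited scaling, 6 of the 10 enzymes had higher normalized counts in both mitochondrial libraries than in either rest library, 1 had lower counts in both, and 3 overlapped. Across all 12150 tested genes, 27.7% were higher without overlap and 33.4% were lower without overlap. The median log2 fold change of the enzymes was 0.44, against -0.14 for all tested genes. In limma's moderated test on log2 of the normalized count plus 1, 0 of the 10 enzymes were called higher and 0 lower (Benjamini-Hochberg adjusted p-value under 0.05), where 3.55% of all tested genes were called, 2.16% as higher and 1.39% as lower. An unadjusted p-value below 0.05 was reached by 2 of the 10, Bcat2 and Hibch, both higher, and by 14.1% (higher) and 16.2% (lower) of all tested genes. With 2 libraries a fraction, the values below are therefore given as measured, and no change is claimed for any single enzyme. In such bulk RNA, fewer cells of a type and less RNA per cell cannot be told apart.

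**Figure D1:**
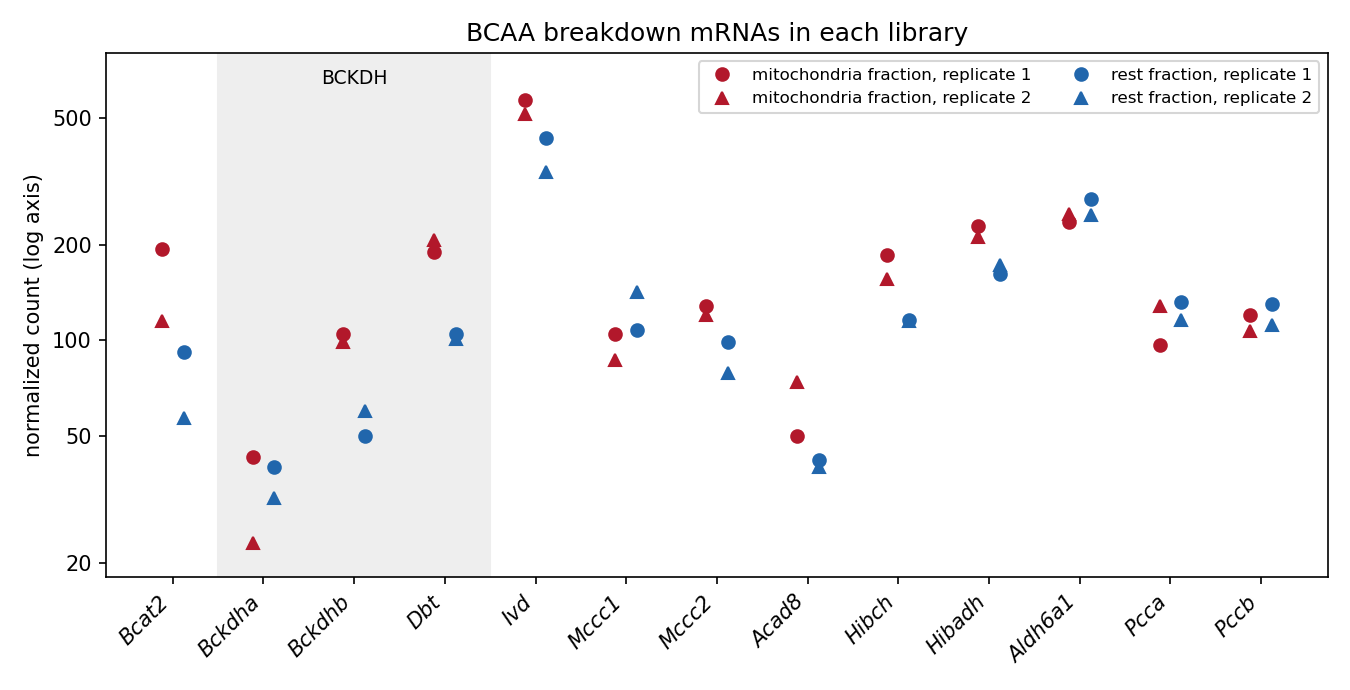
Normalized counts (log axis) of the 10 enzymes and, on grey, the 3 BCKDH genes in each library. Red symbols are the mitochondrial fraction, blue symbols the rest fraction, circles replicate 1 and triangles replicate 2; with the deposited scaling, both red symbols stand above both blue symbols for 6 of the 10 enzymes and below them for Mccc1.

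Bcat2 (ENSMUSG00000030826, chr7:45570153-45589711, plus strand), the aminotransferase upstream of BCKDH, had 194 and 115 normalized counts in mitochondria and 92 and 57 in the rest fraction. Both mitochondrial values were higher, although replicates of each fraction differed widely. The log2 fold change was 1.03 (95% interval 0.04 to 2.03, adjusted p = 0.157 from limma), a ratio of 2.05. It was higher than that of 91.4% of the nuclear protein-coding genes. About 50 and 45 reads lay behind the mitochondrial values, and the log2 fold change was 0.66 without mitochondrial replicate 1 and 1.41 without mitochondrial replicate 2. The deposited table counts genes and does not separate the transcripts of Bcat2.

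In the leucine branch, with the deposited scaling, the fold changes of the carboxylase subunits had opposite signs. Ivd (ENSMUSG00000027332, chr2:118861954-118882909, plus strand), isovaleryl-CoA dehydrogenase, had 569 and 513 normalized counts in mitochondria and 432 and 338 in the rest fraction. It had the highest counts of the 10 enzymes and did not overlap between fractions (log2 fold change 0.50, 95% interval -0.02 to 1.02, adjusted p = 0.176 from limma). Mccc2 (ENSMUSG00000021646, chr13:99948530-100015639, minus strand), the subunit of methylcrotonyl-CoA carboxylase with the carboxyl-transfer site, had 128 and 120 against 99 and 79. Both mitochondrial values were again the higher ones (log2 fold change 0.48, 95% interval -0.09 to 1.06, adjusted p = 0.216). Mccc1 (ENSMUSG00000027709, chr3:35959312-36000678, minus strand), the biotin-carrying subunit, had 105 and 87 in mitochondria against 108 and 142. Here both mitochondrial values were the lower ones, with mitochondrial replicate 1 close to rest replicate 1 (log2 fold change -0.37, 95% interval -1.01 to 0.27, adjusted p = 0.358). The mitochondrial counts of Mccc1 rested on about 27 and 34 reads, and its log2 fold change was -0.57 without rest replicate 1 and -0.17 without rest replicate 2. That of Ivd was 0.32 without rest replicate 2.

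In the valine branch, with the same scaling, the first enzymes were higher with mitochondria and the last overlapped. Acad8 (ENSMUSG00000031969, chr9:26974135-26999566, minus strand), isobutyryl-CoA dehydrogenase, had 50 and 74 normalized counts against 42 and 40. It had the lowest counts of the 10 enzymes and only about 13 reads in mitochondrial replicate 1, so that the gap to the rest libraries was small there (log2 fold change 0.56, 95% interval -0.22 to 1.33, adjusted p = 0.272 from limma). Without mitochondrial replicate 1 the log2 fold change was 0.84, and without mitochondrial replicate 2 it was 0.28. Hibch (ENSMUSG00000041426, chr1:52844929-52920986, plus strand), which releases 3-hydroxyisobutyrate from its CoA ester, had 186 and 156 against 116 and 115. The rest values were nearly equal and both mitochondrial values lay well above them (log2 fold change 0.56, 95% interval 0.04 to 1.07, adjusted p = 0.148). Hibadh (ENSMUSG00000029776, chr6:52546228-52640389, minus strand), which oxidizes 3-hydroxyisobutyrate, had 229 and 212 against 162 and 172. Its replicates were close in each fraction and the fractions did not overlap (log2 fold change 0.40, 95% interval -0.06 to 0.86, adjusted p = 0.205). Aldh6a1 (ENSMUSG00000021238, chr12:84430717-84451004, minus strand), methylmalonate semialdehyde dehydrogenase, had 236 and 250 against 279 and 247. The fractions overlapped (log2 fold change -0.11, 95% interval -0.57 to 0.35, adjusted p = 0.692).

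Both subunits of propionyl-CoA carboxylase overlapped between fractions. Pcca (ENSMUSG00000041650, chr14:122534324-122891100, plus strand), the biotin-carrying subunit, had 97 and 128 normalized counts in mitochondria and 132 and 116 in the rest fraction (log2 fold change -0.15, 95% interval -0.76 to 0.46, adjusted p = 0.691 from limma). Pccb (ENSMUSG00000032527, chr9:100982032-101034898, minus strand), the carboxyl-transferring subunit, had 120 and 107 against 130 and 112 (log2 fold change -0.09, 95% interval -0.63 to 0.45, adjusted p = 0.791). Without mitochondrial replicate 1, the log2 fold change of Pcca was 0.048, and without rest replicate 1 that of Pccb was 0.017, so that neither had a settled sign.

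The BCKDH subunits, which stand between these steps, were likewise not alike, with the deposited scaling: 2 were higher in both mitochondrial libraries and 1 overlapped. Dbt (ENSMUSG00000000340, chr3:116513070-116549981, plus strand), the E2 core that carries the acyl group, had 190 and 207 normalized counts in mitochondria and 105 and 101 in the rest fraction. Bckdhb (ENSMUSG00000032263, chr9:83925145-84124240, plus strand), the E1 beta subunit, had 105 and 99 against 50 and 60. In both genes replicates were close and the fractions lay far apart, with log2 fold changes of 0.94 (95% interval 0.46 to 1.42, adjusted p = 0.0605 from limma) and 0.88 (0.30 to 1.47, adjusted p = 0.0851). Bckdha (ENSMUSG00000060376, chr7:25629946-25658981, minus strand), the E1 alpha subunit whose phosphorylation inhibits the complex, had 43 and 23 against 40 and 32. Its fractions overlapped (log2 fold change -0.18, 95% interval -1.23 to 0.88, adjusted p = 0.788), with only 11 and 9 estimated reads behind the mitochondrial values, and its log2 fold change was 0.26 without mitochondrial replicate 2. With genes below a mean of 50 normalized counts left out of the test, Bckdha among them, the adjusted p-values of Dbt and Bckdhb were 0.0229 and 0.0417, and 2 BCKDH genes and 0 of the 10 enzymes were then called higher. Over the 5556 genes tested in this way, 14.2% were called higher and 12.1% lower.

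The signs above hold for the deposited scaling, in which the median gene had a log2 fold change of -0.14. With libraries scaled by their total less the mitochondrial chromosome, the median gene had -0.98 and the median of the 10 enzymes was -0.42, and with the library total the values were -3.93 and -3.52. Under these scalings limma called 129 genes higher and 3819 lower, and 2 higher and 12022 lower, in place of 262 and 169. Relative to the median gene, the enzymes were higher by 0.58 with the deposited scaling, by 0.56 without the mitochondrial chromosome and by 0.41 with the library total. Rescaling moves all genes of a library alike, so that distances from the median gene differ between scalings only through the added count of 1 and are no test of stability. Bcat2, Ivd, Mccc2, Acad8, Hibch and Hibadh lay above the median gene under each of these scalings, and Mccc1 lay below it under each. Pcca lay between -0.15 and -0.0098 from it, close to the median gene with the deposited scaling, and Pccb and Aldh6a1 lay at most 0.050 above it with the deposited scaling and below it with the library total. Bckdhb and Dbt lay between 0.89 and 1.08 above the median gene under these scalings, and Bckdha between -0.082 and -0.039 from it.

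**Figure D2:**
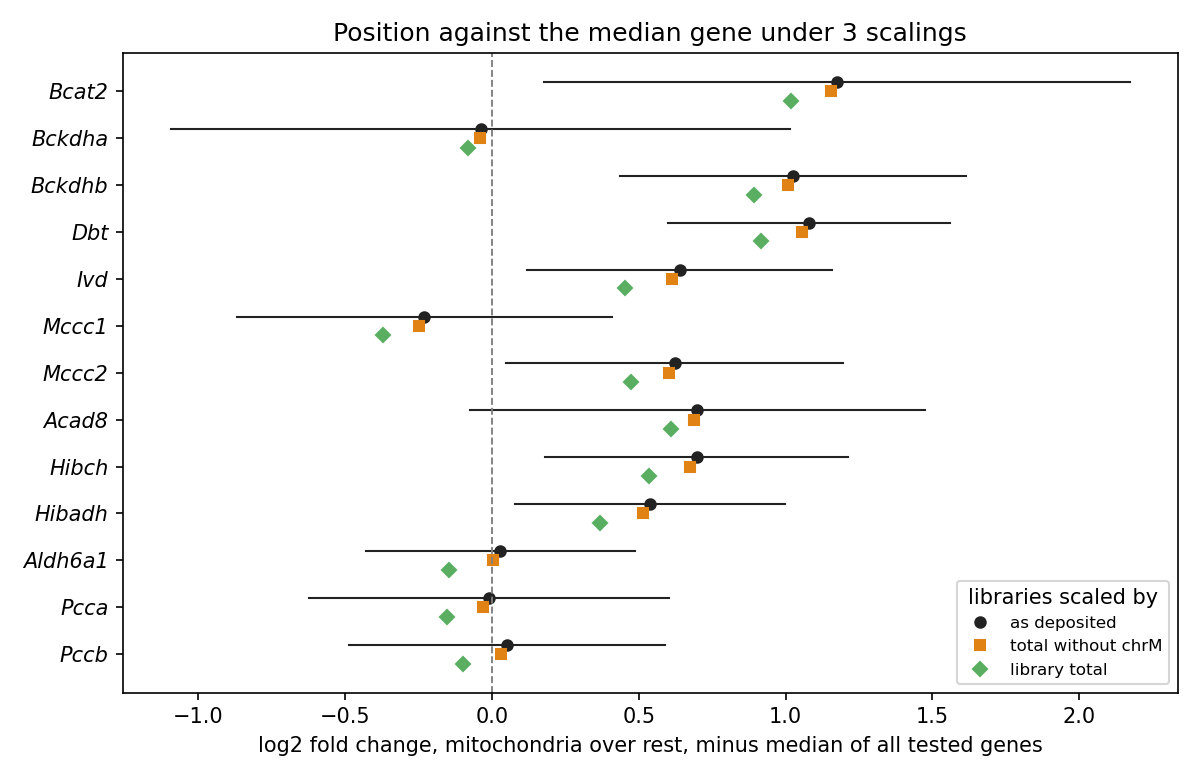
Log2 fold change of mitochondria over rest for each gene after subtracting the median of all tested genes, for libraries scaled as deposited (black, with limma's 95% interval), by the total without the mitochondrial chromosome (orange) and by the library total (green). Bcat2, Ivd, Mccc2, Acad8, Hibch and Hibadh lie to the right of the dashed line under each scaling, which moves all genes of a library alike. Mccc1 and Pcca stay to its left, and Pccb and Aldh6a1 cross from its right to its left with the library total.

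Ratios of subunit mRNAs within a library do not depend on how libraries are scaled. The ratio of Mccc1 to Mccc2 was 0.820 and 0.725 in mitochondria and 1.09 and 1.80 in the rest fraction, so that the biotin subunit was the less counted one in both mitochondrial libraries and the more counted one in both rest libraries. On the log2 scale, after 1 was added to each count, the mean ratios differed by -0.85 between fractions. The mitochondrial ratios rested on few reads, about 27 and 34 of Mccc1 and 33 and 47 of Mccc2. The ratio of Pcca to Pccb was 0.808 and 1.20 against 1.02 and 1.04, and it overlapped (difference -0.060). In BCKDH, the ratio of Bckdha to Dbt was 0.226 and 0.111 against 0.381 and 0.317, a difference of -1.12, and that of Bckdha to Bckdhb was 0.410 and 0.232 against 0.800 and 0.533, a difference of -1.06. Only about 11 and 9 mitochondrial reads of Bckdha lay behind these ratios. Bckdhb to Dbt, at 0.553 and 0.478 against 0.476 and 0.594, overlapped (difference -0.054). Over these 5 ratios, the two-sided exact permutation p was 0.333 for the 3 without overlap, which is the smallest that 2 libraries against 2 allow (0.556 after Benjamini-Hochberg adjustment), and 1.0 and 0.667 for Pcca to Pccb and Bckdhb to Dbt.

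**Figure D3:**
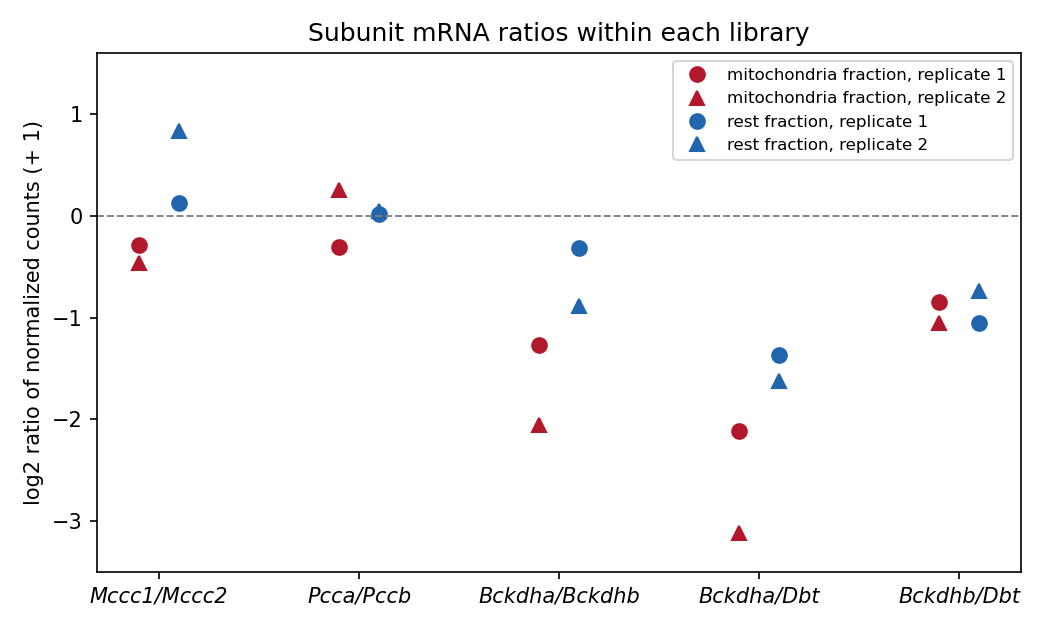
Log2 ratio of the normalized counts, plus 1, of paired subunits in each library; symbols and colours mark fraction and replicate as in the plot of counts by gene. The mitochondrial symbols lie below the rest symbols for Mccc1/Mccc2, Bckdha/Bckdhb and Bckdha/Dbt and mix with them for Pcca/Pccb and Bckdhb/Dbt.

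The mean log2 value of the 10 enzymes minus that of the 3 BCKDH genes was 0.71 and 0.91 in mitochondrial replicates 1 and 2 and 1.14 and 1.02 in rest replicates 1 and 2. This score was thus lower in both mitochondrial libraries than in both rest libraries (difference -0.27). With summed normalized counts in place of mean log2 values the difference was -0.49. The counts were not divided by length here, so the score does not say which of the 2 sets was more abundant. It also pools BCKDH genes that were not alike, with log2 fold changes of 0.94 (Dbt), 0.88 (Bckdhb) and -0.18 (Bckdha). Bckdha had only about 11 and 9 mitochondrial reads. No p-value was made for this score, and 2 against 2 libraries could not give one under 0.333.

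Levels of different genes were compared per length. Per kb of all annotated exons, Ivd was the most abundant in both fractions, with 98.3 ± 7.19 normalized counts per kb (SD, n = 2 here and below) in mitochondria and 69.9 ± 12.1 in the other fraction. Mccc2, Aldh6a1, Pccb and Bcat2 followed in mitochondria with mean levels between 44.3 and 39.6 per kb and were not separated beyond the spread of Bcat2 (SD 14.3, n = 2). Hibch (28.2), Hibadh (21.7) and Pcca (21.6) came next, and Acad8 (15.0 ± 4.10) and Mccc1 (8.77 ± 1.16) were lowest. In the rest fraction, Aldh6a1 (45.5 ± 3.91) and Pccb (43.7 ± 4.59) stood after Ivd and ahead of Mccc2 (31.8 ± 5.05), and the levels of Bcat2 (19.1) and Hibch (19.1) were equal within their SDs. Dbt and Bckdhb, at 59.3 ± 3.59 and 56.5 ± 2.35 per kb in mitochondria, lay above each enzyme except Ivd there by this length, while at 30.8 ± 0.845 and 30.5 ± 3.92 in the rest fraction they lay below Ivd, Aldh6a1, Pccb and Mccc2.

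The order depended on the length used. In Mccc1, Hibadh and Hibch the longest annotated transcripts, of 6751, 6084 and 3765 bases, have 2, 1 and 1 exons. They are not the longest protein-coding ones. All annotated exons of Mccc1 cover 10952 bases, against 2455 in its longest protein-coding transcript. Those of Hibadh cover 10179 bases, against 1825. Per kb of the longest protein-coding transcript, a length chosen after the values were seen, Ivd stayed first (148 ± 10.8 in mitochondria and 105.0 ± 18.1 in the rest fraction) and Hibadh was second in both (121 ± 6.59 and 91.5 ± 3.87). Bcat2 then stood 4th of the 10 in mitochondria (74.2 ± 26.8) and 9th in the rest fraction (35.8 ± 11.9), and Mccc1 9th (39.1 ± 5.18) and 6th (50.9 ± 9.79). Acad8 was last in both (21.5 ± 5.88 and 14.2 ± 0.490). By this length the means of Bckdhb (69.1 ± 2.87) and Dbt (60.1 ± 3.64) lay below those of Ivd, Hibadh, Hibch, Bcat2 and Aldh6a1 in mitochondria. Their place above all enzymes but Ivd thus did not hold. By library, Bcat2 (55.3) lay below Bckdhb (67.0) and Dbt (62.7) in mitochondrial replicate 2. In mitochondrial replicate 1, Aldh6a1 (69.4) lay below Bckdhb (71.1).

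**Figure D4:**
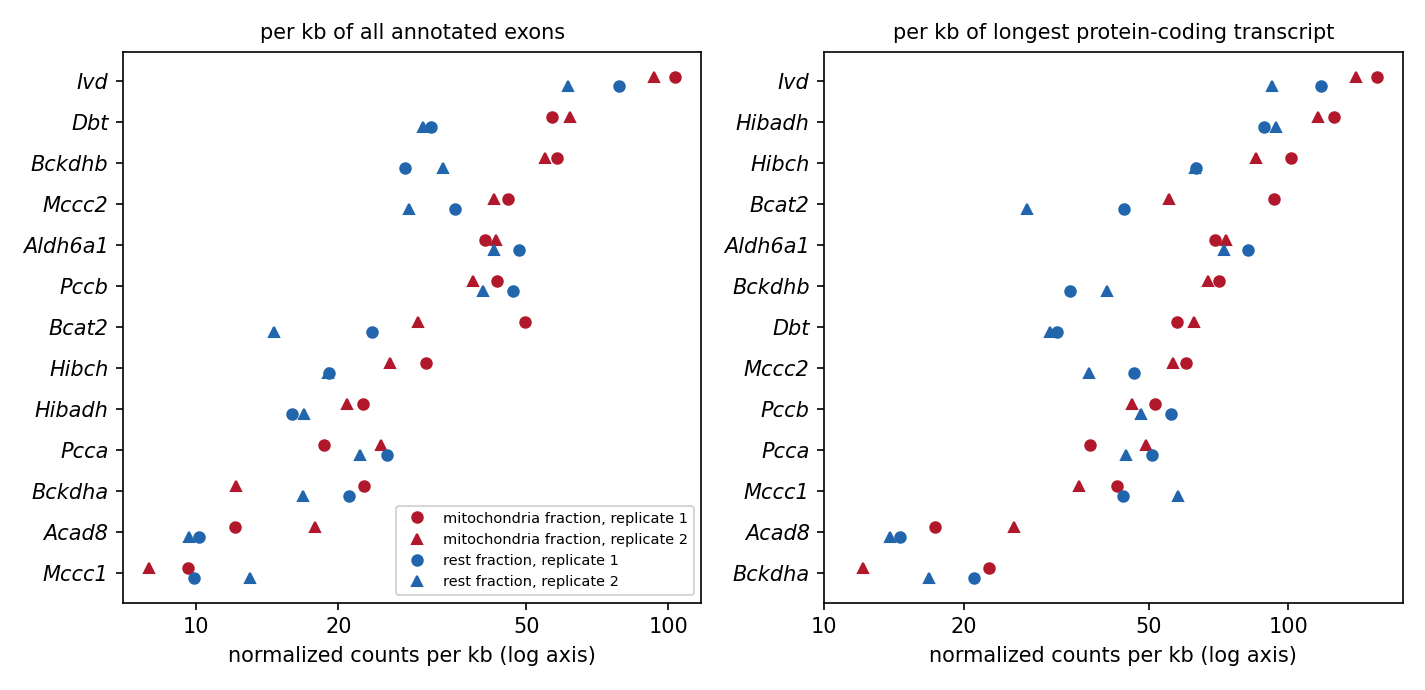
Normalized counts per kb (log axis) in each library for the 10 enzymes and the 3 BCKDH genes, per kb of all annotated exons (left) and of the longest protein-coding transcript (right), each ordered by the mitochondrial mean. Ivd is highest in both panels, and Hibadh, Hibch and Mccc1 stand higher in the order of the right panel than in that of the left.

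A feature that the list did not use was transcript length. The longest protein-coding transcripts of the 10 enzymes measured from 1825 to 3665 bases, and 9 of the 10 were shorter than the median of 3445 bases over 10597 nuclear protein-coding genes, as were all 3 BCKDH genes. Over these genes the median log2 fold change went down with length when they were split into 5 length groups of nearly equal size, from 0.60 in the shortest (up to 1981 bases) through 0.047 (1982 to 2957 bases) and -0.20 (2959 to 4006 bases) to -0.38 and -0.56 in the longer groups. The share of genes with both mitochondrial values above both rest values was 57.0%, 30.7% and 19.6% in the first 3 groups. Against the median of their own length group, 5 of the 10 enzymes were higher. These were Bcat2 (by 0.99), Ivd (by 0.70), Acad8 (by 0.51), Mccc2 (by 0.43) and Aldh6a1 (by 0.089). Hibch and Hibadh, which did not overlap between fractions, lay -0.048 and -0.21 from the median of the shortest group. Dbt lay 1.14 above its length group, the widest distance of the 13 genes, Bckdhb lay 0.28 above its own and Bckdha -0.78 from the same one. Whether length accounts for the values of these genes was not tested.

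**Figure D5:**
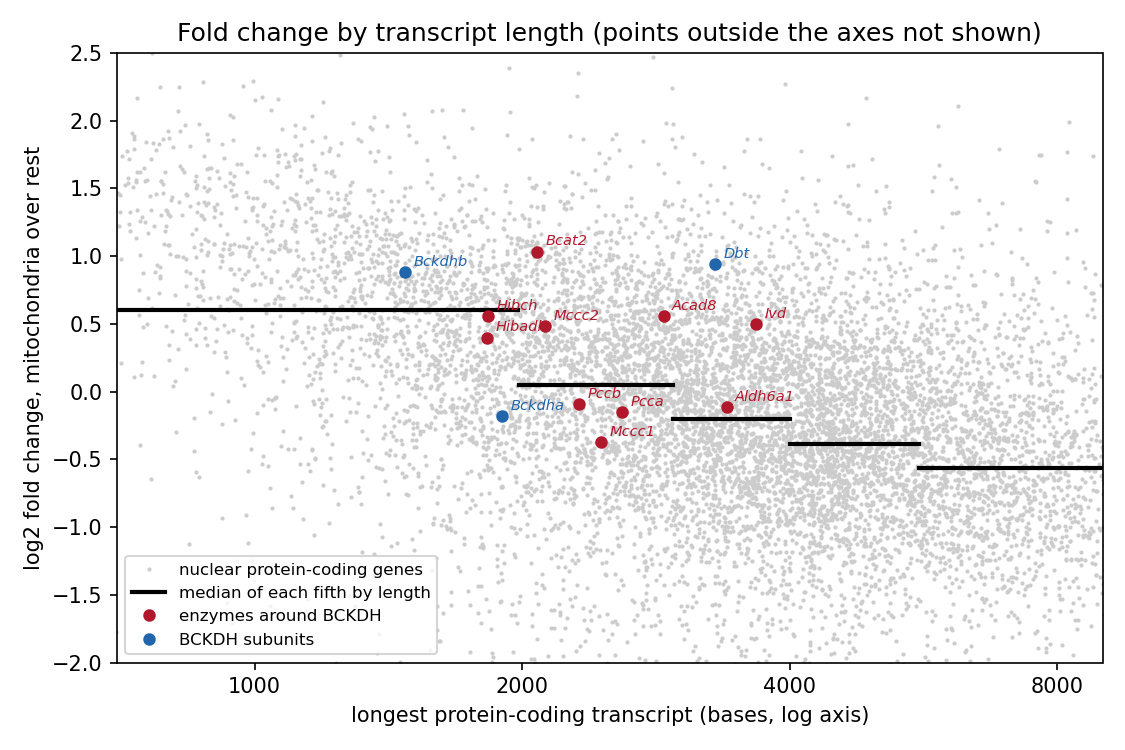
Log2 fold change of mitochondria over rest, with the deposited scaling, against the length of the longest protein-coding transcript (log axis) for nuclear protein-coding genes (grey), with black bars at the median of each of 5 length groups. The enzymes around BCKDH (red) lie between 1825 and 3665 bases, and Bcat2, Dbt and Ivd stand clearly above the bars at their length.

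The G and C content of the transcripts separated the genes less: medians of 5 groups by this content lay between -0.26 and -0.065. The enzymes ranged from 41.9% (Hibch) to 54.3% (Bcat2) and the BCKDH genes from 42.1% (Dbt) to 57.9% (Bckdha).

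Other genes of BCAA breakdown were taken from a list of 22, made up of regulators, carriers and the remaining enzymes of the path and of its shared end. Of the 21 that could be tested, limma called 0 higher and 0 lower after adjustment. With an unadjusted p-value below 0.05, 10 were higher and 0 lower, against 14.1% and 16.2% of all tested genes. Both mitochondrial values were above both rest values in 13 of the 21 and below in 0, against 27.7% and 33.4% of all tested genes. The median log2 fold change was 0.48, close to that of the 10 enzymes. Mcee, the epimerase that follows propionyl-CoA carboxylase, had the largest value of the list, with 174 and 97 normalized counts in mitochondria and 43 and 39 in the rest fraction (log2 fold change 1.64, adjusted p = 0.0650). Dld, the E3 subunit that BCKDH shares with other ketoacid dehydrogenases, had 922 and 842 against 606 and 678 (log2 fold change 0.46, adjusted p = 0.153).

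The regulators and carriers did not share a sign with the deposited scaling. Bckdk, the kinase that inhibits BCKDH, had 77 and 102 normalized counts in mitochondria and 68 and 58 in the rest fraction (log2 fold change 0.49, adjusted p = 0.266 from limma). Ppm1k, the phosphatase that reverses this, had 569 and 296 against 366 and 319, with overlap (log2 fold change 0.26, adjusted p = 0.638), and its log2 fold change was -0.21 without mitochondrial replicate 1. Slc25a44, a carrier that brings BCAAs into mitochondria, had 15 and 36 against 36 and 28, with about 4 reads in mitochondrial replicate 1 (log2 fold change -0.43, the most negative of the list, adjusted p = 0.592). Without mitochondrial replicate 1 it was 0.18. Bcat1, the cytosolic aminotransferase, was listed at 8 and 20 against 4 and 8 and was not tested because of its low counts.

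Citric acid cycle and fatty acid oxidation genes, whose proteins also work in mitochondria, were set beside the enzymes. Both mitochondrial values were above both rest values in 13 of 17 citric acid cycle genes (76.5%) and 12 of 16 fatty acid oxidation genes (75.0%). This compared with 6 of the 10 enzymes and 27.7% of all tested genes. Median log2 fold changes of the 2 lists were 0.72 and 0.64. After adjustment, limma called 0 genes of either list. When only genes with means above 50 were tested, 7 of 17 and 3 of 15 were called higher, against 14.2% of all genes tested in this way. With an unadjusted p-value below 0.05, 10 citric acid cycle genes and 9 fatty acid oxidation genes were higher and 0 of either lower. Of all tested genes, 14.1% were higher and 16.2% lower by this measure. The fatty acid list shares 5 genes with the list of other BCAA genes. In the citric acid cycle list, Sdhb of succinate dehydrogenase had the largest log2 fold change (1.25, from 1321 and 857 against 494 and 403 normalized counts) and Ogdh of the oxoglutarate dehydrogenase complex the most negative (-0.30, with overlap), which was 0.022 without mitochondrial replicate 2. In the fatty acid list, Etfb, an electron carrier subunit that also takes electrons from IVD and ACAD8, was highest (log2 fold change 1.65, from 194 and 133 against 49 and 52, adjusted p = 0.0511). Cpt1b was lowest, listed at 0 and 8 against 10 and 16, with about 0 and 3 reads behind the mitochondrial values. The differences between these lists and the 10 enzymes were not tested.

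Several of these counts are uncertain for reasons of annotation. Exons of Bcat2, Mccc1, Pcca, Aldh6a1 and Bckdha overlap exons of genes on the opposite strand, namely 0610005C13Rik for Bcat2, B230207O21Rik, Gm15952 and Mccc1os for Mccc1, Ggact for Pcca, Bbof1 for Aldh6a1 and B3gnt8 for Bckdha. The study's methods do not say whether strand was used in counting. Exons of Hibadh overlap those of Gm24355 on the same strand, and the authors left out reads that lay over more than 1 gene. The unlisted processed pseudogenes Gm7512 and Gm11225 are 92.6% identical to Hibch over 1124 bases and 91.7% identical to Hibadh over 855 bases. The counting error alone, from the number of reads, was between 0.0837 (Ivd) and 0.257 (Acad8) on the log2 scale for the fold changes of the 10 enzymes, compared with limma's standard errors of 0.175 (Aldh6a1) to 0.381 (Bcat2), and such counting errors do not include copies made by PCR.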

How the data were processed

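RNA sequencing of the mitochondrial and rest fractions of WT mouse hearts, 2 libraries each, was used. Per the labels, reads were trimmed with Trimmomatic 0.39, aligned to mm10 with STAR 2.7.10a and counted with featureCounts 2.0.2, and DESeq2 1.30.1 was used; the paper's methods name other versions of these tools. The authors left out reads that aligned to several places or lay over more than 1 gene. The deposited signal is the count per gene divided by a size factor and rounded by the authors.

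The worth of 1 read in normalized counts was found from the spacing of the low values. Because rounding hides single reads in the rest libraries, no count model was used. Linear models with a mean-variance trend were fitted in limma 3.58.1 (R 4.3.3) on log2 of the normalized count plus 1, over the 12150 genes that reached 10 normalized counts in 2 or more libraries, with Benjamini-Hochberg adjustment over these genes. The fraction was the only term. The steps were tested on simulated data. Intervals at 95% are limma's.

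The enzymes, the gene lists and the tests were chosen with earlier results of these data known. Named genes were the enzymes, the BCKDH genes, Bckdk, Ppm1k, Slc25a44, Bcat1 and Dld, and of each further list the genes called after adjustment and those with the largest and the most negative log2 fold change. Positions and transcripts came from GENCODE M21 (GRCm38), whose gene positions match those of the table for these genes, and transcripts were compared with blastn 2.17.0 (at least 90% identity over 50 bases). Alternatives were other scalings, filters and pseudocounts, the replicate number as a block, each library left out, and other gene lengths. Python 3.11.15, numpy 2.4.6, pandas 2.3.3 and matplotlib 3.10.9 were used.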

Additional observations from a re-analysis of the deposited data

How the results depend on the processing

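With 2 libraries a fraction and from about 13 to 201 reads per enzyme in a mitochondrial library, small differences were not detectable. The 10 enzymes had 0 called higher under each alternative. The number called lower was 10 with the library total and 3 (Mccc1, Pcca and Aldh6a1) with the total without the mitochondrial chromosome, and 0 under the others. Under these scalings, in that order, 12022 and 3819 of all 12150 tested genes were called lower. The number with both mitochondrial values above both rest values was 6, and 0 under these scalings.

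With the library total, median log2 fold changes were -3.52 for the enzymes, -3.04 for BCKDH, -3.42 for the other BCAA genes and -3.93 for all tested genes, with 3 BCKDH and 21 other BCAA genes called lower and 0 of either above without overlap; 2 of all tested genes were called higher and 12022 lower. Reversed log2 fold changes were -2.91 for Bcat2, -3.48 for Ivd, -3.46 for Mccc2, -3.40 for Hibch, -3.56 for Hibadh, -3.32 for Acad8, -3.04 for Bckdhb, -3.01 for Dbt, -3.42 for Bckdk, -3.71 for Ppm1k, -3.52 for Dld, -2.29 for Mcee, -2.73 for Sdhb and -2.29 for Etfb. With the total without the mitochondrial chromosome, medians were -0.42 for the enzymes, 0.031 for BCKDH, -0.38 for the other BCAA genes and -0.98 for all tested genes, with 1 other BCAA gene called lower, 3 above without overlap and 0 BCKDH genes above without overlap; 129 of all tested genes were called higher and 3819 lower. Reversed values were -0.36 for Ivd and Bckdk, -0.37 for Mccc2, -0.30 for Hibch, -0.46 for Hibadh, -0.29 for Acad8, -0.60 for Ppm1k and -0.41 for Dld. These shifts follow from the scaling.

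All tested genes gave 790 higher and 670 lower with genes of a mean above 50 (median -0.052), 630 lower without a filter (median -0.26), 536 and 580 with a pseudocount of 10, and 0 and 0 with a pseudocount of 0.1 (1694 and 1754 with an unadjusted p-value below 0.05). BCKDH genes called higher numbered 2 with a mean above 50 and 1 with a pseudocount of 10. Other BCAA genes called higher numbered 1 with recomputed size factors, 1 without a filter, 4 with a mean above 50 and 1 with a pseudocount of 10; the causes were not tested.

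With the replicate number as a block, 470 genes were higher and 309 lower, and 2 other BCAA genes were called higher, while 0 enzymes and 0 BCKDH genes were. It also called 3 citric acid cycle genes and 2 fatty acid oxidation genes higher, Sdhb (adjusted p = 0.0348 from limma) and Etfb (0.0395) among them, which with means above 50 had 0.0249 and 0.0110. Differences between replicates 1 and 2 correlated weakly across genes between fractions (r = 0.13), and nothing shows that equal numbers mark a shared heart.

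With each library left out, limma assumes that a lone library varies like the other fraction. The number of all tested genes called higher was then 0 to 0 and lower 0 to 0, with 590 to 2333 higher and 468 to 3324 lower by an unadjusted p-value below 0.05. The median of the enzymes ranged from 0.32 to 0.46, Bcat2 from 0.66 to 1.41, Acad8 from 0.28 to 0.84, Ivd from 0.32 to 0.68, Mccc2 from 0.32 to 0.64 and Mccc1 from -0.57 to -0.17. Signs changed for Pcca (-0.35 to 0.048), Pccb (-0.20 to 0.017), Bckdha (-0.62 to 0.26), Ppm1k (-0.21 to 0.73), Slc25a44 (-1.03 to 0.18) and Ogdh (-0.62 to 0.022). The enzymes minus BCKDH gave -0.37 to -0.17, and -0.49 with summed counts. The ratio of the highest to the lowest enzyme per kb in mitochondria was 11.2, and 6.87 with the longest protein-coding transcript.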

Other observations

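The deposited table marks genes with KEGG pathway terms, and 46 carry the term for valine, leucine and isoleucine degradation, all 10 enzymes among them. Of the 43 that were tested, 22 (51.2%) had both mitochondrial values above both rest values, 3 (6.98%) had both below and 18 overlapped, with a median log2 fold change of 0.42. Across all tested genes, 27.7% were above and 33.4% below without overlap. After adjustment limma called 0 of the 43. An unadjusted p-value below 0.05 was reached by 14 as higher and by 1 as lower, against 14.1% and 16.2% of all tested genes. Of the 16 tested genes with the term that were in none of the BCAA lists above, 3 (18.8%) were higher without overlap, 2 were lower and 11 overlapped, with a median of -0.24. This set was chosen after the other values were seen.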
